A study of Mus musculus with 2 samples.

Results

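Monocytes were picked out of 2 single-cell libraries by a gate on a few genes, and they numbered 135 of the 24208 cells that passed the cell filter. A passing cell had at least 500 detected genes and at most 20% of its unique molecular identifiers (UMIs, the counted molecules) from mitochondrial genes. The gate took cells with at least 20 UMIs of Lyz2 per 10000, under 5 UMIs of C1qa, C1qb and C1qc together per 10000, and at least 3 UMIs of Ly6c2, Plac8 and Ccr2 together. It also asked for at most 1 UMI of the T cell receptor complex genes Cd3d, Cd3e and Cd3g, and at most 2 UMIs of Hmga2, Tnfrsf12a and Igf2bp2, which mark the tumour-like cells of these libraries. The cells were selected on these 13 genes, so their levels describe the gate and are no finding. The gate left 113 of 11648 passing control cells and 22 of 12560 passing knockdown cells.

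Both libraries came from mouse tumours of LLC, the Lewis lung carcinoma line, which the labels call a lung cancer xenograft. One library is labelled control, and the other carried a short hairpin RNA that lowers GFPT2, an enzyme at the entry to the hexosamine pathway, which makes the sugar donor for protein glycosylation. The series asks what this knockdown does to the immune cells of the tumour. The mouse strain, the age and sex of the hosts, the time of harvest, the number of animals in each library and the cell type that received the hairpin are not given in the sources used here. With 1 library per group no value could be compared with the variation among animals. No test was run, and the 95% intervals cover counting error only.

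Classical monocytes leave the bone marrow under the chemokine receptor Ccr2, circulate with high surface Ly6C, and enter inflamed tissue and tumours. There many of them turn into macrophages, losing Ly6c2 and Plac8 and gaining complement C1q, Apoe and, in many settings, class II antigen presentation. A further subset, the non-classical monocyte, patrols vessels, has low Ly6C, and depends on the nuclear receptor Nr4a1.

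The 113 control monocytes held 458250 UMIs and the 22 knockdown monocytes 68488. The median control monocyte had 3627 UMIs (1045 to 22706) and 1688 detected genes, and the median knockdown monocyte 2887 UMIs (1651 to 5874) and 1489.5 genes. C1q macrophages, taken here with the same gates but at least 5 C1q UMIs per 10000 and no demand on monocyte genes, numbered 3286 and 3393, with medians of 5912 and 4292 UMIs. The libraries shared 37 cell barcodes, none of them on a monocyte. Levels below are CPM, the UMIs of a gene scaled to the total UMIs of the same cells, and ratios are knockdown over control.

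Ly6c2 (ENSMUSG00000022584), a surface protein of classical monocytes, was at 969 CPM (control) and 1548 CPM (knockdown). Plac8, a small cytoplasmic protein of immature myeloid cells, was at 2241 and 3241 CPM, Ccr2 at 375 and 292 CPM, and Lyz2, lysozyme, at 10638 and 18032 CPM. At least 1 UMI of Ly6c2 was found in 93 of 113 and 20 of 22 cells, of Plac8 in 105 and 22 cells, and of Ccr2 in 79 and 15 cells. All 3 genes were seen in 60 control and 15 knockdown cells, which follows in part from the gate and lends the label no support of its own. Ly6c2 has close relatives in its gene cluster, and UMIs of Ly6c1 (16 and 0), Ly6a2 (42 and 12) and Ly6i (61 and 26) were counted in the same cells, so the split among them is uncertain.

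The promoter of Ly6c2 is shown because this gene gives the cells their name and because it carries the PU.1 letters. PU.1, the product of Spi1, is the main transcription factor of the myeloid lineage. The window runs from 250 bases before to 50 bases after a RefSeq start on the minus strand of chr15:75111922-75112221 (GRCm38.p6), and capitals mark each GAGGAAG, searched on both strands.
Ly6c2: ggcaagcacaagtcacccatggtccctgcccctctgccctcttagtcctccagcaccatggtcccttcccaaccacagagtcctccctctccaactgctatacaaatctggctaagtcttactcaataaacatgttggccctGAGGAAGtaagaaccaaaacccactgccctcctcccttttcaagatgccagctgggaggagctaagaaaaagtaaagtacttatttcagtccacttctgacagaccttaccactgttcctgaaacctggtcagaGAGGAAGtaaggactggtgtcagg
Of the 32851 RefSeq windows searched, 13.6% hold these letters, so their presence here is a description and not a binding site.

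Of the C1q, Lyz2 and monocyte gene limits, the C1q limit had the most cells beside it. In the control library 54 monocytes had 2 to under 5 C1q UMIs per 10000 and 30 cells just outside had 5 to under 10, and in the knockdown library these were 10 and 5 cells. No C1q UMI at all was found in 49 control and 12 knockdown monocytes. Exactly 3 UMIs of the monocyte genes were found in 13 and 0 monocytes, and 2 UMIs, just outside, in 6 and 1 cells. Lyz2 between 20 and under 30 per 10000 was found in 9 and 1 monocytes, and between 10 and under 20 in 10 and 3 cells outside. Cells low in C1q that lacked 3 UMIs of the monocyte genes numbered 28 and 14, with medians of 2496 and 1188 UMIs.

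C1q was also counted in droplets of cells that should not make it. In cells with at least 3 UMIs of the Cd3 genes, called T cells here and kept with their doublets, 37.4% of 903 control cells (34.3 to 40.7) and 34.4% of 744 knockdown cells (30.995 to 37.9) had at least 5 C1q UMIs per 10000, at median depths of 3563 and 3311 UMIs. Their median C1q was 2.93 and 2.03 per 10000. A monocyte droplet with 5 or more was outside the gate, and how many were lost this way was not measured. Apoe, the apolipoprotein of macrophages, had 6254 CPM in control monocytes against 6320 CPM in those T cells and 57986 CPM in C1q macrophages. In knockdown monocytes it had 10498 CPM against 6234 and 55531 CPM, and 1 cell held 57.0% of its UMIs.

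Of the passing control cells 0.970% were monocytes (0.8002 to 1.17), and of the passing knockdown cells 0.175% were (0.110 to 0.265), so the share was 5.54-fold higher in the control library. Among the Lyz2 cells left by the T cell and tumour limits, 3427 and 3429 cells, they made up 3.30% (2.73 to 3.95) and 0.642% (0.403 to 0.970). Those denominators were nearly equal, so the Lyz2 cells as a whole did not differ in number as the monocytes did. The ratio of the shares was 0.181 (0.0942 to 0.331) over passing cells and 0.195 (0.102 to 0.356) over Lyz2 cells. Thinned to 3000 UMIs per cell, which leaves out 1562 control and 2516 knockdown cells below that depth, the shares were 0.664% (0.515 to 0.843) and 0.110% (0.0547 to 0.196). The limits of the shares did not overlap under any of the alternatives drawn in the plot of shares. With 1 library per group, the knockdown and a difference between animals or cell preparations cannot be told apart.

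**Figure D1:**
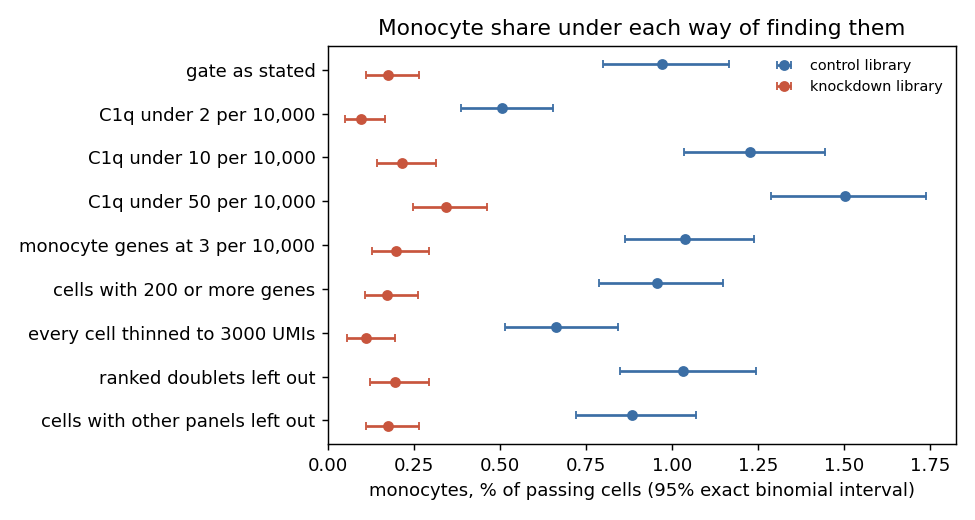
Share of monocytes among passing cells (%) in the control and knockdown libraries, with exact binomial 95% intervals, under the gate as stated and 8 changes to it. The control share lies above the knockdown share under each, with ratios between 0.165 and 0.228.

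The difference in share was smaller in cells with the same monocyte genes and more C1q. Lyz2 cells with at least 3 monocyte UMIs at any C1q level numbered 353 of the control Lyz2 cells (10.3%, 9.30 to 11.4) and 134 of the knockdown Lyz2 cells (3.91%, 3.28 to 4.61). Of those cells the C1q-low monocytes were 32.0% (27.2 to 37.2) and 16.4% (10.6 to 23.8). Counted along C1q, the control library had 49, 64, 62, 70 and 108 cells in the bins of none, over 0 to under 5, 5 to under 50, 50 to under 150 and at least 150 C1q UMIs per 10000. The knockdown library had 12, 10, 21, 34 and 57 cells in the same bins. The knockdown library was thus short of cells in each bin, and most so below 5.

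Several defining genes of other cell types were at 0 in the monocytes, while stromal genes of the tumour panel were not. The neutrophil receptor gene Cxcr2 and the neutrophil surface gene Ly6g had 0 UMIs in both libraries, and so had the dendritic genes Xcr1, Clec9a, Cd209a, Zbtb46 and Ccr7, the plasmacytoid gene Siglech, the NK receptor Ncr1, and all 5 genes of the basophil panel. Other genes of these panels were counted in control monocytes. Neutrophil Mmp8 had 18 UMIs in 15 cells, S100a9 9 in 2 cells and Retnlg 6 in 1 cell. Plasmacytoid Cox6a2 had 9 in 7 cells, dendritic Flt3 and Fscn1 3 each, and NK genes Gzma 2 and Prf1, Klre1 and Klrb1c 1 each. In knockdown monocytes Mmp8 had 1 UMI and the others 0. At least 3 UMIs of a panel were found in 8 of 113 control and 0 of 22 knockdown cells for neutrophils, in 9 and 0 for tumour genes, in 6 and 1 for myeloid progenitors, and in 1 and 0 each for plasmacytoid, B and T cells. Taken as 3 cells of 22, the limit that a count of 0 allows is 13.6%, and the exact upper limit is 15.4%. At least 1 UMI of the tumour panel was found in 48 of 113 control and 10 of 22 knockdown cells. Its Col3a1, a fibrillar collagen, was at 391 and 102 CPM, Cald1, caldesmon, at 192 and 14.6 CPM, and Sparc, a matrix protein, at 107 and 43.8 CPM. T cells held more of all 3, with 936 and 902 CPM of Col3a1, and the part of such RNA in the differences between the libraries was not tested. S100a8, an alarmin of neutrophils and of some classical monocytes, had 54 UMIs in 15 control cells, 16 of them in 1 cell, and 1 UMI in the knockdown cells. Prtn3, a granule protease made by progenitors and young monocytes, had 33 UMIs in 21 control cells and 6 in 4 knockdown cells, or 72.0 and 87.6 CPM, against 0.862 and 0.204 CPM in T cells. Of the granule enzymes of earlier progenitors, Mpo and Ctsg had 0 UMIs, and Elane had 3 UMIs in 2 control cells and 0 in knockdown cells. Leaving out the cells with 3 UMIs of the neutrophil, dendritic, plasmacytoid, NK, B cell or basophil panel, but not those with tumour, progenitor or T cell genes, gave 103 and 22 monocytes and a ratio of shares of 0.198.

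Single monocytes differed widely from each other. Chil3 (ENSMUSG00000040809), a chitinase-like secreted lectin that marks young classical monocytes, was seen in 76 of 113 control cells (67.3%, 57.8 to 75.8), with a median of 9.22 UMIs per 10000 and a highest value of 64.4. It was seen in 11 of 22 knockdown cells (50%, 28.2 to 71.8), with a median of 0.851 and a highest value of 61.5. Hp, haptoglobin, a haemoglobin-binding protein, went the other way, in 53 of 113 control cells (46.9%, 37.5 to 56.5) and 16 of 22 knockdown cells (72.7%, 49.8 to 89.3), with medians of 0 and 7.29 per 10000. The top Chil3 cell reached about the same level in both libraries, and the groups overlapped for each gene. After thinning, Chil3 was seen in 53 of 67 control and 6 of 11 knockdown cells, and Hp in 35 of 67 and 9 of 11.

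Class II UMIs were found in all monocytes, and their amount differed from cell to cell. At least 3 UMIs of the class II list were counted in 110 of 113 control and 22 of 22 knockdown cells. H2-Ab1, a class II beta chain, had a UMI in 54 of 113 control cells (47.8%, 38.3 to 57.4) and 9 of 22 knockdown cells (40.9%, 20.7 to 63.6). T cells at similar depth, with medians of 3563 and 3311 UMIs, had an H2-Ab1 UMI in 36.2% (33.1 to 39.4) and 38.8% (35.3 to 42.5) of cells. The intervals of both monocyte shares of H2-Ab1 overlapped that background. Cd74, the invariant chain of class II, had a UMI in 82.3% of control (74.0 to 88.8) and 81.8% of knockdown monocytes (59.7 to 94.8). Its T cell shares were 54.7% (51.4 to 58.0) and 53.2% (49.6 to 56.9), with intervals apart from the monocytes in both libraries. The median of H2-Ab1 was 0 in the monocytes of both libraries, with highest values of 142 and 47.2 per 10000. The 20 control monocytes without a Ly6c2 UMI had more of it than the 93 with one, 2466 CPM (2097 to 2882) against 1124 CPM (1022 to 1234). Cd74 was at 6290 against 3531 CPM in the same sets, and Cxcl10, an interferon-induced chemokine, at 702 against 193 CPM, from 5 of 20 and 23 of 93 cells. Chil3 ran in the opposite direction, with 874 CPM (660.2 to 1135) in the cells without Ly6c2 and 1684 CPM (1559 to 1818) in those with it, and Hp was at 172 against 421 CPM. Ccr2, one of the gate's own genes, was at 577 against 342 CPM and Plac8 at 2248 against 2240 CPM. A cell without Ly6c2 could enter only with at least 3 UMIs of Plac8 and Ccr2 together, so these levels follow in part from the gate. The split rests on a gene of few UMIs, and the cells without it were shallower, with a median of 2883 against 3749 UMIs.

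Genes of non-classical monocytes were present at low levels. Nr4a1 had 181 and 277 CPM, against 36.8 and 38.4 CPM in C1q macrophages. Ace, angiotensin-converting enzyme, had 34.9 CPM from 16 UMIs and 131 CPM from 9 UMIs, against 0.370 and 0.668 CPM in macrophages. Adgre4, an adhesion receptor of this subset, was seen in 9 of 113 control cells (7.96%, 3.71 to 14.6) and 9 of 22 knockdown cells (40.9%, 20.7 to 63.6), but after thinning in 5 of 67 and 1 of 11 cells. Pou2f2, a transcription factor, was at 93.8 and 263 CPM, with 8 of the 18 knockdown UMIs in 1 cell. Cd300e, another marker of the subset, had 0 and 1 UMIs. Cx3cr1, its chemokine receptor, was at 103 and 117 CPM and lower than in macrophages, which had 299 and 264 CPM.

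**Figure D2:**
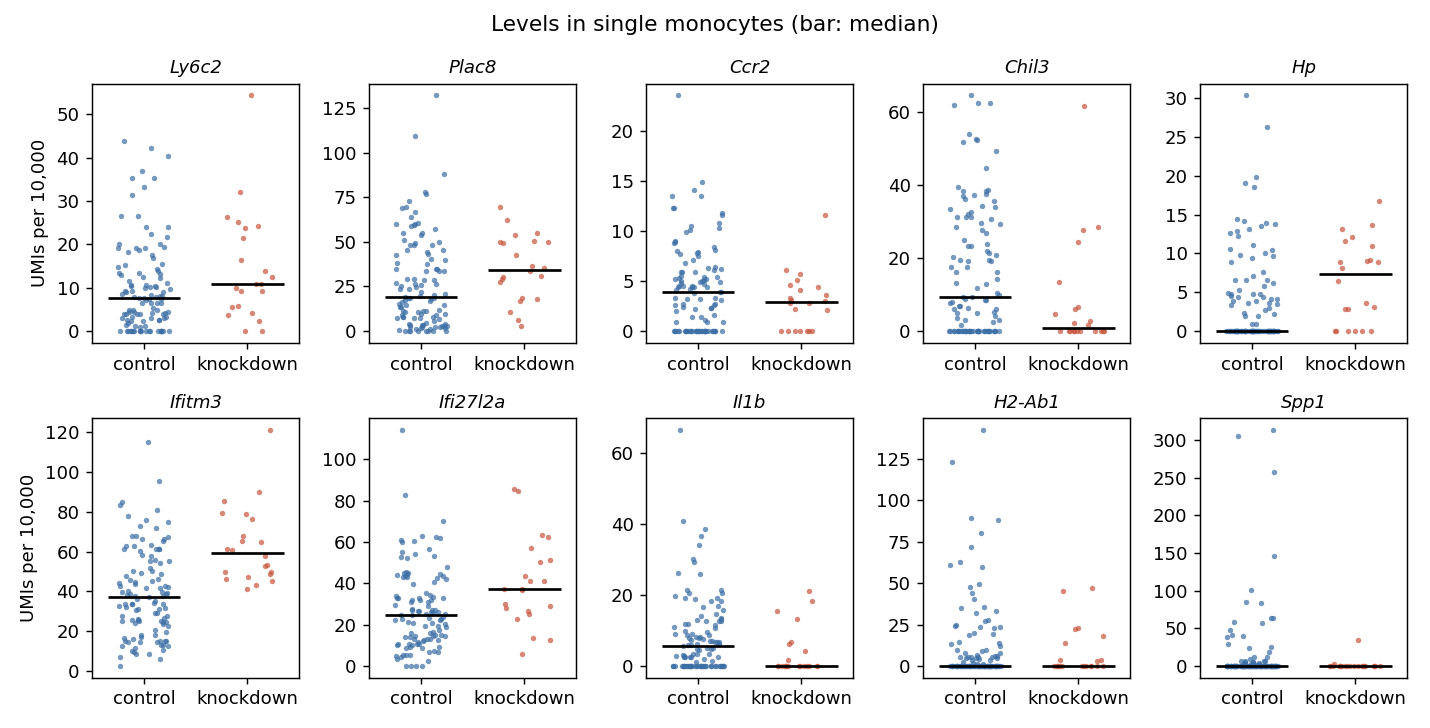
UMIs per 10000 in each of the 113 control and 22 knockdown monocytes for 10 genes, the first 3 of which set the gate, with a bar at the median. Ifitm3 in the knockdown cells starts at 41.3. The median of Il1b is 5.48 in control and 0 in knockdown cells, and that of Spp1 is 0 in both.

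The monocytes were then described beside the C1q macrophages of the same libraries. The groups were split on C1q, so genes that follow C1q differ by construction and nothing is tested by this. Of 9498 genes with at least 100 UMIs in monocytes or macrophages of each library, 309 (3.25%) were more than 2-fold higher in monocytes in both libraries and 158 (1.66%) more than 2-fold lower.

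The 10 genes highest in monocytes against macrophages included several enzymes. Napsa, an aspartic protease, was at 430 CPM (372 to 494) against 26.5 CPM in macrophages of the control library, and at 628 CPM (454 to 846) against 17.98 CPM in the knockdown library. F10, coagulation factor X, was at 251 against 17.5 CPM and at 248 against 6.92 CPM. Gsr, glutathione reductase, was at 379.7 against 28.5 CPM and at 861 against 24.7 CPM. Plcb1, a phospholipase C, showed 21.3-fold and 26.1-fold differences, and Gpr141, an orphan receptor, 13.5-fold and 26.8-fold. The other genes named by the rule of size were Hopx, Clec4e, Ly6i, Cytip and Zfyve9, between 7.996-fold and 29.6-fold higher. The highest of these values was that of Ly6i in the knockdown library, where 13 of 26 UMIs were in 1 cell, and 24 of the 56 control UMIs of Clec4e were in 1 cell. Hopx and Cytip were also present in T cells, at 98.6 and 102 CPM in the control library, while F10 and Gpr141 were at 2.59 and 2.30 CPM there. The rule asked for a difference in both libraries, so that these 10 share one is no finding.

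Chil3 and Hp had the largest control ratios to macrophages in the classical list. Chil3 was at 1571 CPM (1459 to 1690) in control monocytes against 40.8 CPM in control macrophages, and at 715 CPM (529 to 946) in knockdown monocytes against 1.58 CPM in knockdown macrophages. Hp was at 386 against 6.98 CPM and at 657 against 1.52 CPM. In T cells, Chil3 was at 1.29 and 0.611 CPM, far below the monocytes. Of 10 classical monocyte genes outside the gate with enough UMIs, 3 were over 2-fold higher than in macrophages in both libraries and none lower. Chil3 and Hp were not among the 10, since neither knockdown group reached 100 UMIs of them. Of 11 matrix and coagulation genes 3 were higher, and of 14 genes for chemokine receptors and adhesion 4 were higher and 2 lower.

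The genes lowest in monocytes included chemokines and surface receptors of macrophages. Ccl8, a monocyte chemoattractant, was at 17.5 CPM (7.54 to 34.4) against 1285 CPM in the control library and at 29.2 CPM (3.54 to 106) against 1060 CPM in the knockdown library. Mrc1, the mannose receptor, was at 19.6 against 266 CPM and at 29.2 against 213 CPM. Ms4a7, a macrophage membrane protein, was at 63.3 against 900.1 CPM and at 102 against 1004 CPM. Fcrls, Gna12, Pf4, Cd72, Cxcl9, Tmem176b and Bmyc completed the 10. Cxcl9 had 0 UMIs in knockdown monocytes, where the floor of 3 UMIs over the group puts it at least 9.03-fold lower. T cells held 98.0 and 118 CPM of Ms4a7, 145 and 127 CPM of Ccl8 and 30.3 and 24.8 CPM of Mrc1, so the monocytes were at or below T cells in 5 of those 6 values.

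By list, 7 of 11 macrophage genes were over 2-fold lower in both libraries and none higher, which covers genes that follow C1q. Of 9 class II genes 4 were lower, of 12 chemokine ligands 5 were lower, and of 12 proliferation genes 5 were lower and none higher. Mki67, a marker of dividing cells, had 5 UMIs in control and 0 in knockdown monocytes, and Hmgb2 was at 253 and 248 CPM. The 11 class I genes had none past 2-fold in both libraries.

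**Figure D3:**
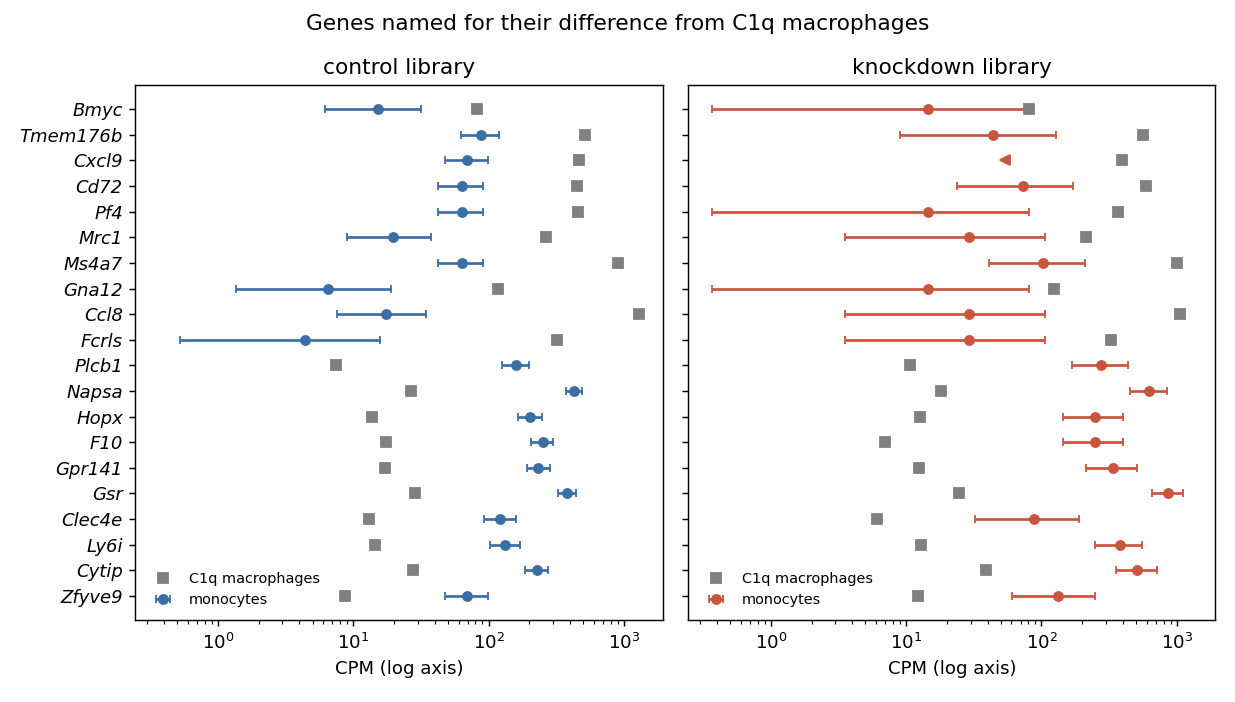
CPM on a log axis for the 10 genes highest and the 10 lowest in monocytes against C1q macrophages, in the control (left) and knockdown (right) library. Circles with bars are monocytes with exact Poisson 95% intervals, squares are macrophages, and the arrow is the upper limit of Cxcl9 at 0 UMIs. Napsa in monocytes is at 430 and 628 CPM against 26.5 and 17.98 CPM in macrophages.

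Chil3 and Hp were lower at high C1q in both libraries. Chil3 in the control library was at 1216, 1774, 1097, 414 and 93.3 CPM over the 5 bins from no C1q to at least 150 per 10000. In the knockdown library it was at 744, 688, 89.8, 0 and 13.5 CPM. It was thus lower in the knockdown library in each of the 5 bins, and only the exact intervals of the first bin overlapped, at 1055 to 1396 and 481 to 1098 CPM. In the bin of 5 to under 50, which lies outside the gate, the values were 1097 CPM (976 to 1230) and 89.8 CPM (44.8 to 161).

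The order along C1q differed from gene to gene. Hp was at 366, 398, 240.2, 45.6 and 24.2 CPM in the control bins and at 565, 745, 73.5, 10.5 and 2.69 CPM in the knockdown bins, so the knockdown library was higher below 5 C1q UMIs and lower above. S100a4, a calcium-binding protein of motile cells, stayed between 1277 and 1386 CPM over the first 3 control bins before going to 864 and 169 CPM, while the knockdown bins were at 1696, 1032, 1012, 561 and 221 CPM. H2-Ab1 in the control library was at 1696, 1091, 942, 4404 and 6709 CPM, so it went up only above 50, while in the knockdown library it was at 744, 1003, 2482, 6426 and 7955 CPM. Ccl8 in the control library was at 18.5 CPM in the middle bin and 806 CPM in the last, and in the knockdown library it was already at 400.05 CPM in the middle bin. Cells in the last 2 bins were deeper, with medians of 6630 and 7140 UMIs in the control and 8465 and 5318 UMIs in the knockdown library. Of the T cells 37.4% and 34.4% had C1q at the level of the middle bin or above, and the part of RNA from other cells in these orders was not tested.

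**Figure D4:**
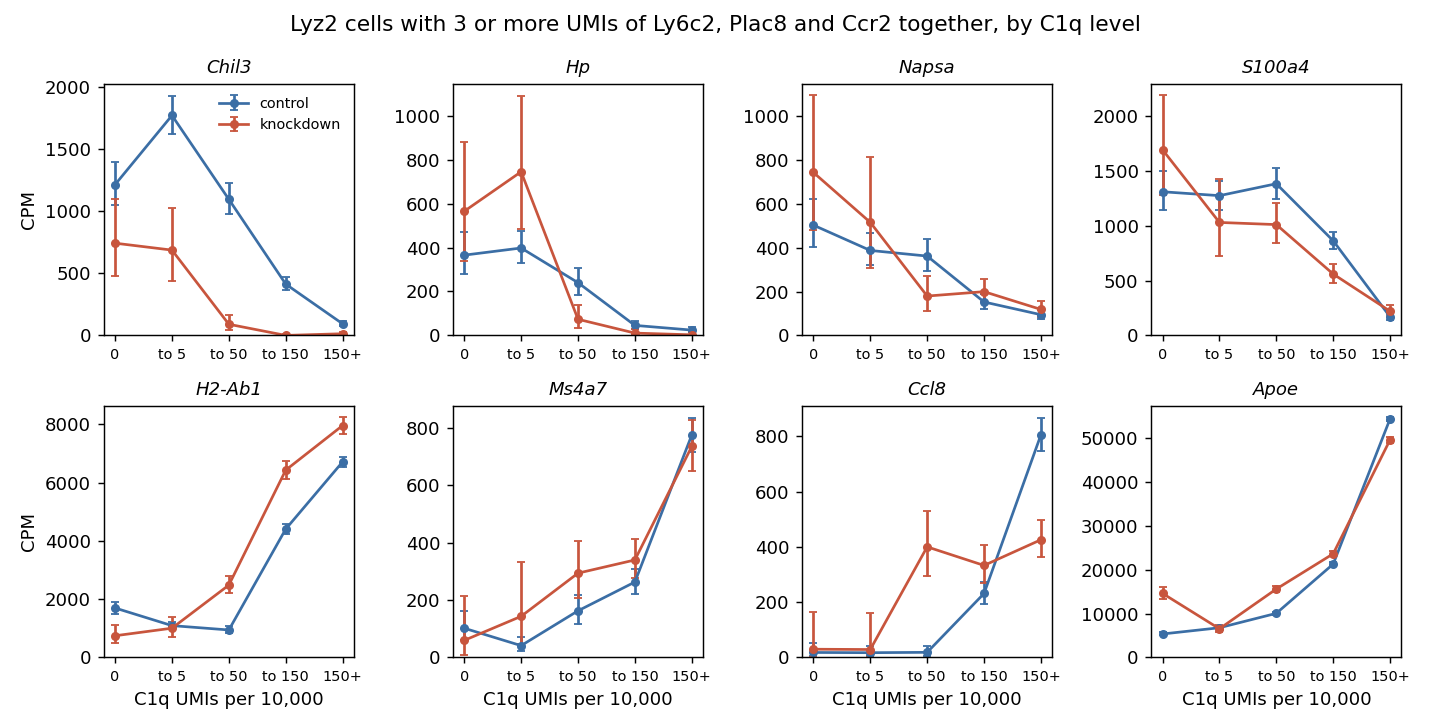
CPM of 8 genes in Lyz2 cells with at least 3 UMIs of Ly6c2, Plac8 and Ccr2 together, in 5 bins of C1q UMIs per 10000, with exact Poisson 95% intervals. The first 2 bins are the monocytes, and Chil3 lies lower in the knockdown library in every bin.

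Between the libraries, 794 genes outside the gate had at least 100 UMIs over both groups of monocytes. Of these, 14 (1.76%) were more than 2-fold higher in knockdown monocytes and 39 (4.91%) more than 2-fold lower, and their median log2 ratio was -0.01. By direction alone 389 of the 794 were higher and 405 lower, and the counts of each list below stand beside that split. Of the genes past 2-fold, the intervals were apart for 14 of the higher and 32 of the lower ones. Without the 2-fold limit they were apart for 65 higher and 74 lower genes of the 794. The control monocytes held most of the UMIs, so a gene high in the control passed the filter more easily than one high in the knockdown, and the split of 39 to 14 carries that. Thinned to equal depth per cell, 12 genes were lower and 4 higher of 328. The control monocytes still held most of the UMIs then, 201000 against 33000, so the filter favoured genes high in the control there too.

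Of the interferon-induced genes, Ifitm3 and Ifi27l2a had the most UMIs and were higher in knockdown monocytes. Ifitm3 (ENSMUSG00000025492), a membrane protein that blocks entry of viruses, was at 3396 CPM (control) and 6176 CPM (knockdown), a log2 ratio of 0.86 (0.65 to 1.07). In control cells its lowest, median and highest levels were 2.74, 37.5 and 115 UMIs per 10000, and in knockdown cells 41.3, 59.3 and 121. Of 113 control monocytes 66 lay below the lowest of the 22 knockdown monocytes, and this count was made after the values were seen. After thinning the levels were 3701 CPM (3440 to 3977) in 67 control cells and 6182 CPM (5363 to 7091) in 11 knockdown cells. In C1q macrophages Ifitm3 was at 1559 and 1785 CPM, a log2 ratio of 0.20, and in T cells at 1005 and 986 CPM.

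The promoter of Ifitm3 is shown because this gene had the most UMIs of its list and because it holds the letters of the interferon-stimulated response element, to which interferon-activated STAT and IRF factors bind. The window is chr7:141010695-141010994 (GRCm38.p6, minus strand, from RefSeq), and capitals mark each match to GAAA, any 2 bases and GAAA again, searched on both strands.
Ifitm3: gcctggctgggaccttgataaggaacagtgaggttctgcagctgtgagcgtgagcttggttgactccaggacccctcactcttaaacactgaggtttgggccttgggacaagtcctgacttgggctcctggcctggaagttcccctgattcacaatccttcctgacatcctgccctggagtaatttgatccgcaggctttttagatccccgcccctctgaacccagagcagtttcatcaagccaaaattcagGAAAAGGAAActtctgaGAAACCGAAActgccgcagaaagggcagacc
Both matches lie after the start. Of all windows 3.44% hold these letters, and 12 of 19 windows of 18 matched genes of the interferon list do, among them those of Isg15, Ifit1, Ifit3, Rsad2 and Cxcl10.

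The rest of the interferon list was mixed. Ifi27l2a, a mitochondrial protein induced by interferon, was at 2368 and 3957 CPM, a log2 ratio of 0.74 (0.48 to 1.00), seen in 109 of 113 and 22 of 22 cells, while in macrophages it was at 857 and 883 CPM. Isg15, a ubiquitin-like modifier, had a log2 ratio of 0.61 (-0.04 to 1.24), with 15 of 45 knockdown UMIs in 1 cell, and Irf7, the factor that amplifies type I interferon, one of 0.58 (-0.11 to 1.23), with 16 of 41 knockdown UMIs in 1 cell. Bst2, which tethers budding viruses, was at -0.05, Zbp1 at 0.07 and Ifi204 at -0.37. Ifih1, a sensor of viral RNA, had 67 and 2 UMIs, or 146 and 29.2 CPM, and Oasl2 was at 168 and 73.01 CPM. Ifit3, also under the UMI limit, was at 109 and 248 CPM, a log2 ratio of 1.19 (0.01 to 2.29), from 4 knockdown cells. Of 8 tested genes 6 were higher and none passed 2-fold, and the list's median log2 ratio was 0.52. That median was 0.73 when thinned, 0.10 with equal weight per cell and -0.03 with the C1q limit at 2. In macrophages Ifit2 had a log2 ratio of 1.00 and Isg15 0.85, while in monocytes Ifit2 was at 103 and 146 CPM from 47 and 10 UMIs, a log2 ratio of 0.51 (-0.96 to 1.83).

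Of the classical monocyte list, 8 of 14 genes were tested, with 3 lower and 1 higher past 2-fold and a median log2 ratio of 0.29. Chil3 had a log2 ratio of -1.13 (-1.68 to -0.62). Thinned, it was further apart, at 2005 CPM (1814 to 2211) in control and 455 CPM (254 to 750) in knockdown cells. Fn1, fibronectin, was at 849 and 409 CPM, a log2 ratio of -1.05 (-1.79 to -0.38), and Cd14, the co-receptor for bacterial lipopolysaccharide, at 430 and 131 CPM, a log2 ratio of -1.71 (-3.04 to -0.58). In the control 54 of 389 Fn1 UMIs were in 1 cell, and T cells held 440 and 570 CPM of Fn1, so the knockdown level was below that of T cells. Thinned, Cd14 was at 368 CPM (289 to 462) and 242 CPM (105 to 478), within 2-fold and with overlapping intervals, and 5 of its 8 knockdown UMIs came from the newly admitted cell. Mgst1, a microsomal glutathione transferase, was higher at 196 and 423 CPM, a log2 ratio of 1.11 (0.23 to 1.95), and Msrb1, a methionine sulfoxide reductase, at 855 and 1329 CPM, a log2 ratio of 0.64 (0.18 to 1.08). In macrophages Mgst1 and Msrb1 had log2 ratios of -0.27 and -0.30. The list's median had no stable sign, at -0.24 when thinned, -0.55 with the C1q limit at 2 per 10000 and -0.29 with it at 50.

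Of the inflammatory list, Il1b and Cxcl2 were lower in knockdown monocytes. Il1b, the precursor of interleukin 1 beta, was at 764 and 394 CPM, a log2 ratio of -0.95 (-1.71 to -0.26), and was seen in 76 of 113 control cells (67.3%, 57.8 to 75.8) and 8 of 22 knockdown cells (36.4%, 17.2 to 59.3). After thinning it was seen in 39 of 67 and 4 of 11 cells. Cxcl2, a neutrophil chemoattractant, was at 1078 and 526 CPM, but 27 of its 36 knockdown UMIs came from 1 cell. Sod2 was at -0.02 and Nfkbia, the NF-kappaB inhibitor, at -0.10. All 4 tested genes were below 0 with a median of -0.53, and 1 passed 2-fold. Thinned, the median of 3 tested genes was 0.10. In macrophages Il1b had a log2 ratio of 0.33.

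Chemokine ligands of the CC family stood apart in a few cells. Ccl4 had a log2 ratio of 0.65 (0.12 to 1.16), Ccl3 one of 0.62 (-0.28 to 1.46), and Ccl2, the ligand of Ccr2, one of -0.04 (-0.64 to 0.53). Ccl5 had 32 UMIs in control and 38 in knockdown monocytes, or 69.8 and 555 CPM, but only 3 knockdown cells carried it and 19 UMIs were in 1 of them. T cells had 1479 and 1183 CPM of Ccl5, and the part of their RNA in those cells was not tested. Ccl7 and Ccl12, below the UMI limit for testing, were at 133 and 307 CPM and at 56.7 and 292 CPM, each with 15 of its knockdown UMIs in 1 cell. Of 6 tested ligands 3 were higher and 3 lower, with 1 past 2-fold and a median of 0.21, which was 0.98 when thinned, -0.10 with equal weight per cell and -1.47 with the C1q limit at 2. Of the macrophage list outside the gate 4 genes were tested, 2 higher and 2 lower, with a median of -0.13, which was 0.71 when thinned.

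Spp1, which marks suppressive myeloid cells of tumours, was lower in knockdown monocytes, from few cells. Spp1, osteopontin, was at 2363 and 175 CPM, a log2 ratio of -3.75 (-4.79 to -2.86). Only 35 of 113 control cells had it, 1 of them with 273 of the 1083 UMIs, and 11 of the 12 knockdown UMIs came from 1 cell. After thinning, 1 newly admitted knockdown cell brought 38 Spp1 UMIs, and the log2 ratio became 0.34. Under the other 7 alternatives it stayed between -3.92 and -1.50, so the sign turned when thinned only. Mmp12, macrophage elastase, had 86 UMIs in 8 control cells, 44 of them in 1 cell, and 0 in knockdown cells. Tgfb1 was at 288 and 496 CPM, a log2 ratio of 0.79 (0.01 to 1.53), and Cd274, the checkpoint ligand PD-L1, at 137 and 175 CPM. The median of the 4 tested genes was -1.50, with 2 lower past 2-fold, and it was -0.10 with the C1q limit at 50 per 10000.

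Glycolytic genes lay within 2-fold of equality between the libraries. All 6 tested genes of the glycolysis and hypoxia list were below 0, with a median of -0.38 and none past 2-fold. The median was -0.14 when thinned and 0.06 with the C1q limit at 50. Gapdh was at 3225 and 2365 CPM, a log2 ratio of -0.45 (-0.75 to -0.15), and Ldha, lactate dehydrogenase, at 973 and 584 CPM, a log2 ratio of -0.74 (-1.36 to -0.15). Pkm, Pgk1, Tpi1 and Eno1 lay between -0.41 and -0.13 with intervals that held 0. Hilpda, a lipid droplet protein induced by hypoxia, had 89 UMIs in 23 control cells and 0 in the 22 knockdown cells, at least 4.43-fold lower by the floor of 3 UMIs over the group. Macrophages had 77.4 and 84.4 CPM of Hilpda and T cells 77.5 and 91.8 CPM. In macrophages the glycolytic genes lay between -0.15 and -0.05.

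Class II genes had a median log2 ratio of -0.42 over 7 tested genes, 5 of them lower and 1 past 2-fold. H2-Eb1 was at 1124 and 511.0 CPM, a log2 ratio of -1.14 (-1.78 to -0.53), H2-Ab1 at 1312 and 876 CPM (-0.58, -1.09 to -0.10) and Cd74 at 3917 and 2920 CPM (-0.42, -0.70 to -0.16). In C1q macrophages the same 3 genes were higher in the knockdown library, with log2 ratios of 0.49, 0.44 and 0.41, though the difference between the cell types was not tested. The direction in monocytes depended on the C1q limit, and with it at 50 per 10000 the median was 0.68. Class I genes had a median of 0.28 over 7 tested genes, none past 2-fold, with H2-D1 at 0.37 (0.07 to 0.67) and B2m, the light chain, at 0.32 (-0.02 to 0.65).

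Receptors for antibodies and microbes were split. Of 7 tested genes 3 were lower past 2-fold, with a median of -0.38, which was 0.12 over 2 genes when thinned and 0.08 over 3 genes with the C1q limit at 2. Beside Cd14, which was within 2-fold when thinned, these were Clec4n, the lectin Dectin-2, at 233 and 58.4 CPM, and Fcgr3, an activating Fc receptor, at 397 and 190 CPM (-1.07, -2.18 to -0.07). Fcer1g, the shared signalling chain, was at 3107 and 3154 CPM, and Fcgr1 at 388 and 394 CPM. Of the matrix and coagulation list all 5 tested genes were below 0 with a median of -0.22, Fn1 alone past 2-fold, while F10 was at -0.02 (-1.06 to 0.94).

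Most tested oxidase subunits and lineage factors had log2 ratios above 0. Cybb, the catalytic subunit of the phagocyte oxidase, was at 473 and 774 CPM, a log2 ratio of 0.71 (0.10 to 1.29), and Ncf4 at 303 and 526 CPM (0.79, 0.04 to 1.51). Of 6 tested antimicrobial and oxidase genes 5 were higher, with a median of 0.65, and Chil3 was the lower one. With the C1q limit at 50 that median was -0.37. Of the lineage factors, 10 of 18 were tested, 8 were higher, and the median was 0.36, which was -0.09 when thinned and -0.06 with the C1q limit at 50. Cebpb, a factor that supports monocyte survival and inflammatory genes, was at 1918 and 2687 CPM (0.49, 0.17 to 0.79), and Spi1 at 596 and 832 CPM (0.48, -0.09 to 1.03). Klf2, a quiescence factor of leukocytes, was the 1 lineage factor past 2-fold, at 303 and 934 CPM (1.62, 1.01 to 2.23). Thinned, Klf2 was at -0.049 with 10 knockdown UMIs in 5 of 11 cells, so that difference was not seen in the deeper cells.

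Of the genes named by size alone, 3 of the lower ones were nearly absent from knockdown monocytes. AA467197 was at 711 CPM from 45 control cells and at 43.8 CPM from 3 knockdown cells, a log2 ratio of -4.02 (-6.46 to -2.31). Ptn, a growth factor of stromal and tumour cells, had 36 of its 106 control UMIs in 1 cell, and T cells held 236 and 155 CPM of it. Without ranked doublets its log2 ratio went from -3.99 to -1.01, and with equal weight per cell to -2.03. Cd81, a tetraspanin, was at 216 and 14.6 CPM, while T cells had 490.3 and 499.9 CPM and macrophages 915 and 1018 CPM. Gng11, Ctsl, Clic4 and Basp1 followed with log2 ratios from -2.08 to -1.94. Gng11 had 44 of its 141 control UMIs in 1 cell, and its log2 ratio was -0.72 with equal weight per cell, -0.86 without ranked doublets and -0.81 when thinned. With the C1q limit at 50, Cd81, Gng11 and Ctsl turned to 1.11, 1.17 and 0.21, and AA467197, Spp1, Clic4 and Basp1 were at -1.74, -1.50, -0.67 and -0.12. Thinned, Ctsl was at -0.39, Basp1 at -0.91 and Ptn at -1.85.

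The genes named as higher had smaller ratios than those named as lower, and more knockdown cells with a UMI. Adgre5, the adhesion receptor CD97, was at 164 and 511.0 CPM (1.64, 0.79 to 2.46), seen in 46 of 113 and 15 of 22 cells, and macrophages had 45.1 and 34.9 CPM. Lst1, a leukocyte-specific transcript of monocytes, was at 223 and 599 CPM, and Ly86, the partner of the receptor CD180, at 247 and 569 CPM. Gsr had a log2 ratio of 1.18 (0.57 to 1.77), and Mir142hg, Camk1d, Pld4, Cytip and Cd48 lay between 1.14 and 1.29. After thinning Cytip was at -0.0081, Adgre5 at 0.35, Mir142hg at 0.33 and Camk1d at 0.32. With the C1q limit at 50, Klf2, Adgre5, Lst1, Gsr and Cytip were at 0.95, 0.76, 0.57, 0.33 and 0.23. Ly86, Camk1d, Pld4, Mir142hg and Cd48 were then at 0.76, 0.43, 0.43, 0.38 and 0.21, so none of these genes stayed past 2-fold. Macrophages had log2 ratios between -0.37 and 0.48 for these 10 genes.

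**Figure D5:**
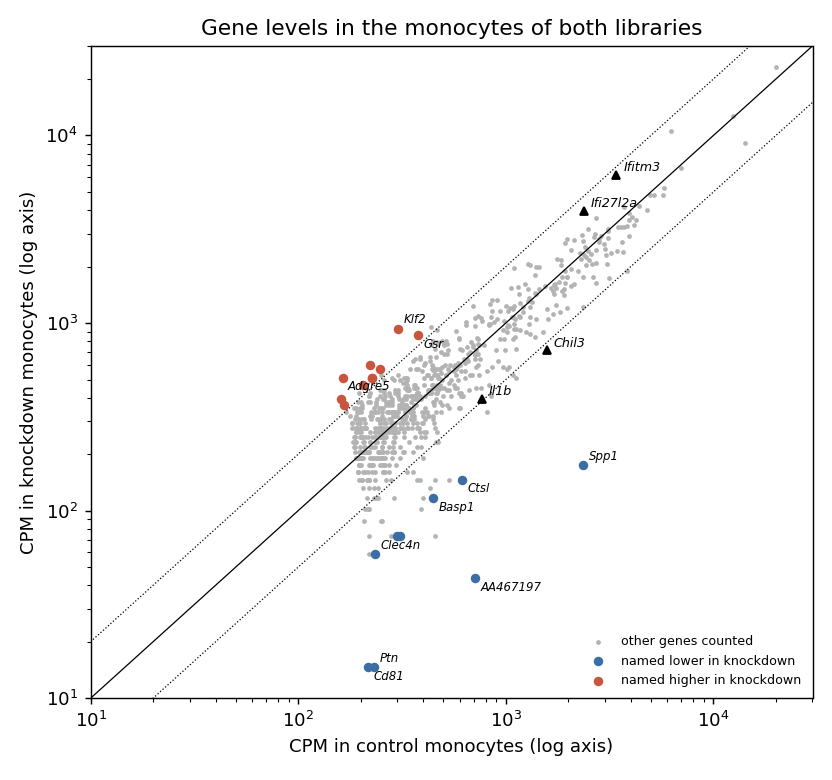
CPM in control monocytes against CPM in knockdown monocytes, both on log axes, for the 794 genes counted, with equality as a line and 2-fold as dotted lines. Named genes are coloured and triangles mark Ifitm3, Ifi27l2a, Chil3 and Il1b. Spp1 lies at 2363 and 175 CPM, and Klf2 at 303 and 934 CPM.

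Gfpt2, the targeted gene, had 0 UMIs in the monocytes of both libraries, so these cells do not check the label. Taken as 3 cells of each group, the count of 0 allows up to 2.65% of control and 13.6% of knockdown monocytes with a UMI. The exact upper limits are 3.21% and 15.4%. Gfpt1, its paralog, had 15 UMIs in 14 control cells and 5 in 4 knockdown cells, or 32.7 and 73.0 CPM. Ogt, the enzyme that uses the pathway's product, had 40 and 3 UMIs, or 87.3 and 43.8 CPM.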

How the data were processed

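Single-cell RNA of 2 tumour libraries was measured on the 10x Genomics platform. What the authors deposited are unnormalised UMI counts, one matrix per library from Cell Ranger, version 6.1.0 per the file headers and 3.1.0 per the submitters' processing notes. The genome build, annotation and any later cell filter are not given in the sources used here. Counting by strand is also not given, so overlapping genes may share UMIs. Both files list 34097 genes. Promoter windows came from RefSeq on GRCm38.p6.

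The monocytes, the gate and the 27 gene lists were chosen with earlier results of these data known. Counts were summed over the monocytes, the C1q macrophages and the T cells (at least 3 UMIs of Cd3d, Cd3e and Cd3g) of each library with Python 3.11.15, numpy 2.4.6, scipy 1.17.1 and pandas 2.3.3, and plots used matplotlib 3.10.9. CPM intervals are exact Poisson and shares exact Clopper-Pearson at 95%, and the range of a ratio is what both intervals allow. A count of 0 was set to a floor of 3 UMIs over the group, and a share of 0 cells was given a limit of 3 cells. The exact 95% upper limits at 0 are higher than both. Genes with at least 100 UMIs over both libraries' monocytes were compared. Named genes were the 10 highest and 10 lowest log2 ratios with intervals apart, leaving out gate genes and predicted or clone-named genes, the 10 highest and lowest against macrophages by the smaller of the 2 libraries' ratios, and the 6 members of each list with most UMIs, and Gfpt1 and Gfpt2. Genes or counts outside this rule were chosen after their values were seen. Results for some single genes are not reported here, although they count in their lists. Doublets were kept in the stated gate. As an alternative the cells ranked highest by Scrublet (scanpy 1.11.5) were left out, at 0.8% per 1000 cells, which took 1085 control (9.31%) and 1262 knockdown (10.05%) passing cells. Of the monocytes 4 and 0 were among them. The scripts were tested on simulated data.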

Additional observations from a re-analysis of the deposited data

How the results depend on the processing

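No paired analysis was possible because each group has 1 library, and for the same reason no replicate could be left out. The shares of monocytes kept their direction under all 15 alternatives, with ratios from 0.165 to 0.228 over passing cells and from 0.189 to 0.246 over Lyz2 cells. The number of genes past 2-fold higher in the knockdown library was 14 of 794 tested, and became 4 of 328 when thinned, 22 of 1466 with C1q under 50 (an alternative chosen after seeing the data) and 1664 of 7737 with no filter on UMIs. The number lower was 39, and became 12 when thinned and 751 with no filter, where most genes have a few UMIs in 22 cells. Of the 13 lists with at least 3 tested genes, 11 had a median that turned sign under 1 or more alternatives, and class I and the matrix and coagulation list did not. These were, when thinned, the suppressive (0.34, where Spp1 was its 1 tested gene), classical (-0.24), macrophage (0.71), inflammatory (0.10), Fc and pattern receptor (0.12) and lineage factor lists (-0.09). With C1q under 50 they were the class II (0.68), antimicrobial (-0.37), glycolysis (0.06), classical (-0.29) and lineage factor lists (-0.06), with C1q under 2 the interferon (-0.03), classical (-0.55), chemokine ligand (-1.47) and Fc lists (0.08), with equal weight per cell the classical (-0.0058) and chemokine ligand lists (-0.10), and with the 6 foreign panels left out the classical list (-0.11). Signs also turned for Spp1 (0.34), Klf2 (-0.049) and Cytip (-0.0081) when thinned, and for Cd81 (1.11), Gng11 (1.17) and Ctsl (0.21) with C1q under 50. Thinning left 67 and 11 cells, and the gate was applied again to the thinned counts, so 7 and 1 cells entered. For Spp1 1 newly entered cell held 38 of the 49 thinned knockdown UMIs. For the others the cause was not tested. Of the other values for named genes 132 kept their sign and stayed within the counting range of the ratio, which is wide, and 13 left it. Depth limits all this: 22 knockdown monocytes hold 68488 UMIs, so 1 UMI there is 14.6 CPM.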
